A study of Mus musculus with 9 samples.

Results

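The 40 genes described here act in mitosis and the G2 phase before it. They were chosen by symbol from a list of mitotic kinases, cyclins, kinetochore proteins, spindle motors and cytokinesis factors, and all 40 were found among the 16876 genes of the count table. All 40 also passed the filter on low counts that left 12212 genes for testing. The libraries come from natural killer (NK) cells that were raised in culture from C57BL/6 mouse marrow, 3 per group. In the SIS3_TGFb group the cells were given the Smad3 inhibitor SIS3 (10 µM) and, 3 h later, TGF-β1 (5 ng/mL) for a further 3 h. The TGFb group had the same TGF-β1 dose and time with no SIS3. The Ctrl group was left untreated. All 3 groups share the culture that made the cells: 4 days with SCF at 30 ng/mL, Flt3L at 10 ng/mL, IL-15 at 50 ng/mL and IL-7 at 1 ng/mL, then a week in which IL-15 stayed at 50 ng/mL and IL-2 was present at 20 ng/mL. Titles of the SIS3_TGFb samples mention SIS3 only, and their treatment text adds TGF-β1, which is followed here. SIS3 was not given alone, so what it does by itself cannot be told apart from what it does to the TGF-β1 response, and no source used here describes a solvent control. Whether replicates are different mice or cultures is not stated, and p-values measure the spread between these libraries only.

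A cell enters mitosis when cyclin B and the kinase Cdk1 become active, and it leaves when the anaphase-promoting complex tags cyclin B and securin for destruction. Most genes of this programme are silent in resting cells and are transcribed together late in the cycle. Their promoters carry paired CCAAT boxes, which bind NF-Y, and a cell cycle homology region, which binds the MuvB complex either with E2F4 and p130 as a repressor or with B-Myb and FoxM1 as an activator. In NK cells IL-2 and IL-15 drive division, and TGF-β restrains growth in many lymphocytes. The summed RNA of such genes reflects both how many cells are cycling and how much RNA each of them holds, and in bulk libraries fewer cells in G2 or mitosis and less RNA per cell cannot be told apart.

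Library totals ran from 15714973 to 16718673 expected counts, and the 40 genes held 20 to 2324 expected counts per gene and library. Levels are CPM, each library's counts set to a common total and scaled with TMM factors. Markers of NK cells were abundant in all libraries, with 14 markers at a summed 15580 to 15840 CPM in SIS3_TGFb, 14220 to 15610 CPM in TGFb and 18790 to 19910 CPM in Ctrl. The cultures also held RNA of other blood cells. Summed, 8 macrophage and monocyte markers, of which Lyz2 was the largest, came to 764 to 1284 CPM in SIS3_TGFb, 680 to 1064 CPM in TGFb and 945 to 1252 CPM in Ctrl, and none of them was at 0. The 7 of 8 dendritic cell markers tested summed to 519 to 903 CPM in SIS3_TGFb, 460 to 730 CPM in TGFb and 572 to 806 CPM in Ctrl. Mast cell and basophil markers (8 of 8 tested) summed to 451 to 525, 479 to 529 and 489 to 517 CPM, and neutrophil markers (3 of 8) to 219 to 232, 233 to 247 and 257 to 297 CPM, in that order of groups. Kit made up 44.9% of the mast cell and basophil sum. The median log2 change of those 8 markers was -0.598 in TGFb versus Ctrl and -0.522 in SIS3_TGFb versus Ctrl, with 7 below 0 in each. The median in TGFb versus Ctrl rests in part on TGFb replicate 3. Prss34 had 52 expected counts there, against 555 and 345 in replicates 1 and 2. Ms4a2 had 8, against 64 and 39, and Fcer1a 0, against 47 and 27. Kit (3442, against 3942 and 3685) and Mcpt8 (3497, against 3464 and 3361) differed little. Ctsg made up 98.3% of the neutrophil sum, and S100a8, S100a9, Elane, Camp and Prtn3 did not pass the filter. T cell markers (7 of 8) summed to 12.1 to 14.5, 8.06 to 22.4 and 15.8 to 17.2 CPM, and erythroid and megakaryocyte markers (5 of 10) to 30.1 to 33.8, 7.72 to 39.1 and 37.0 to 47.0 CPM. None of the 6 B cell markers passed the filter.

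The genes as a sum were lower after TGF-β1, and where SIS3 had been given first the sum lay in the range of untreated cells or just below it. Summed over the 40 genes, the libraries held 882, 889 and 986 CPM in SIS3_TGFb and 748, 767 and 667 CPM in TGFb, against 902, 912 and 1010 CPM in Ctrl. All TGFb sums lay below all Ctrl and all SIS3_TGFb sums, while the SIS3_TGFb and Ctrl sums overlapped. In the heat map of single genes the TGFb columns are blue for nearly every gene, and the SIS3_TGFb columns are mixed.

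**Figure D1:**
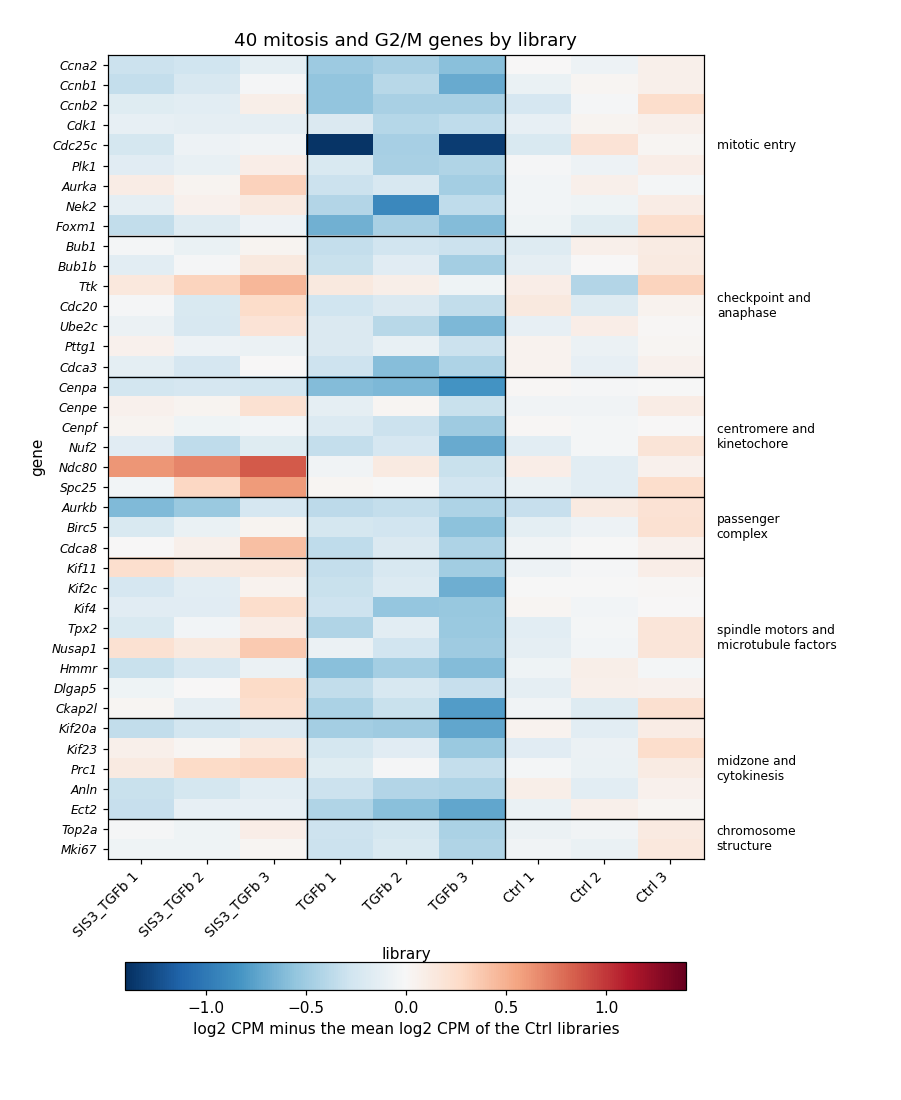
Level of each of the 40 genes (rows, by role) in each of the 9 libraries (columns), as log2 CPM minus the mean log2 CPM of the 3 Ctrl libraries, so that blue is below and red above Ctrl. The TGFb columns are mostly blue, with Cdc25c and Cenpa among the darkest, and Ndc80 is red in all 3 SIS3_TGFb libraries.

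TGFb versus Ctrl gives the response of these transcripts to TGF-β1 alone. Of the 40 genes 33 fell, 0 rose and 7 did not pass edgeR's quasi-likelihood test at an adjusted p below 0.05, where 16.4% of all 12212 genes tested fell and 34.3% changed in either direction. At an unadjusted p below 0.05 the counts were 35 down and 0 up, and 0 rose by DESeq2 or limma voom, which called 28 and 32 down. The median log2 change was -0.36 over the 40 genes and -0.004 over all genes, and the single values ran from -0.99 to 0.02. The TGFb libraries lay wholly below the Ctrl libraries for 34 of the 40, against 22.1% of all genes. The steepest falls belonged to Cdc25c, the phosphatase that activates Cdk1 (-0.99 ± 0.24, adjusted p = 0.0038), to Cenpa, the histone H3 variant of centromeres (-0.68 ± 0.059, adjusted p = 1.4e-07), and to the transcription factor Foxm1 (-0.59 ± 0.11, adjusted p = 0.00082). The count rests in part on replicate 3. It was 21 without Ctrl replicate 3, 23 without TGFb replicate 3 and 18 without replicate 3 of each group, a setting added after the data were seen, with a median of -0.25 in the last. Over all 12212 genes the falls were 1655, 1858 and 1858 in these settings, against 2004 with all libraries. The count among the 40 thus dropped by a larger share than that of all genes.

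The second comparison, SIS3_TGFb versus TGFb, asked how prior SIS3 altered these transcripts when TGF-β1 was present in both groups. It shares its TGFb libraries with the first, so a low TGFb library pushes both in opposite directions. Of the 40 genes 31 rose, 0 fell and 9 did not pass, where 21.2% of all genes rose and 41.8% changed in either direction. At an unadjusted p below 0.05 the counts were 36 up and 0 down, and 0 fell by DESeq2 or limma voom, which called 28 and 31 up. The median log2 change was 0.34 over the 40 genes and 0.01 over all genes. The largest values were those of Cdc25c (0.86 ± 0.24, adjusted p = 0.0086), Ndc80, a subunit of the complex that ties kinetochores to microtubules (0.79 ± 0.12, adjusted p = 0.00011), and Nek2, a centrosome kinase (0.57 ± 0.15, adjusted p = 0.0057). The SIS3_TGFb libraries lay wholly above the TGFb libraries for 32 of the 40, against 26.5% of all genes. The count of rises was 22 without SIS3_TGFb replicate 3, 25 without TGFb replicate 3 and 15 without replicate 3 of each group, where the median was 0.23. Over all genes the rises were 2376, 2343 and 2423 in these settings, against 2585 with all libraries. Here too the count among the 40 dropped by the larger share.

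The third comparison, SIS3_TGFb versus Ctrl, showed where both agents together left these transcripts. It shares libraries with each of the other comparisons. Of the 40 genes 5 fell, 3 rose and 32 did not pass, where 53.9% of all genes changed, 24.9% down and 29% up. The share of the 40 that changed was thus below that of all genes. The median log2 change was -0.03 over the 40 and 0.02 over all genes, and without scaling factors the median of the 40 was 0.03. A gene that did not pass is not shown to have returned to its Ctrl level: for Mki67 the value was -0.04 ± 0.059, adjusted p = 0.64, and for Cdc25c -0.13 ± 0.21, adjusted p = 0.65. The genes that stayed below Ctrl were Aurkb (-0.47 ± 0.13, adjusted p = 0.0052), Kif20a (-0.27 ± 0.080, adjusted p = 0.01), Cenpa (-0.25 ± 0.056, adjusted p = 0.0015), Ccna2 (-0.24 ± 0.063, adjusted p = 0.0044) and Hmmr (-0.20 ± 0.075, adjusted p = 0.034). Those above Ctrl were Ndc80 (0.72 ± 0.12, adjusted p = 0.00012), Prc1 (0.23 ± 0.080, adjusted p = 0.024) and Kif11 (0.17 ± 0.070, adjusted p = 0.048). Ccna2, Aurkb, Cenpa and Ndc80 passed under all 18 alternatives. The Kif11 call ended in 11 of them, Hmmr in 6, Prc1 in 5 and Kif20a in 2.

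**Figure D2:**
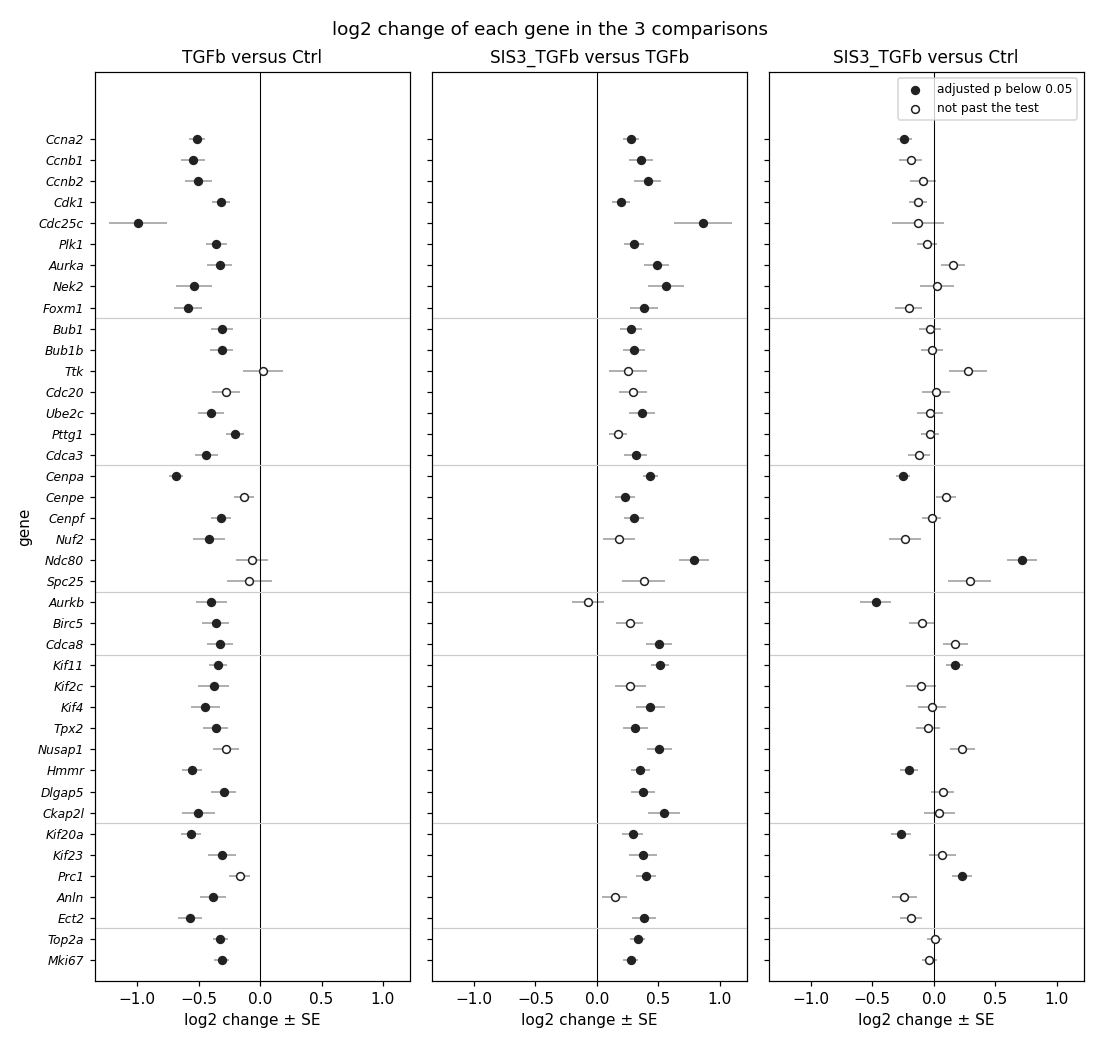
Fitted log2 change of each gene with its SE in TGFb versus Ctrl, SIS3_TGFb versus TGFb and SIS3_TGFb versus Ctrl (n = 3 libraries per group); filled points have an adjusted p below 0.05 and grey lines part the roles. Points lie left of 0 in the first panel except Ttk, right of 0 in the second except Aurkb, and on both sides of 0 in the third.

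Promoter sequences of the genes were searched for short motifs. RefSeq promoter windows on GRCm38.p6, each 250 bases before and 50 after a start point, were matched by Entrez number for 33 of the 40, and the first entry was used where a gene had several (Ect2 and Prc1). The start point is the outermost end of the gene in the RefSeq gene table for 16 of the 33, lies up to 71 bases inside the gene for 12 and 316 to 3852 bases inside it for 5 (Aurka, Ect2, Cdca3, Pttg1 and Kif2c). Tpx2, Kif20a, Aurkb, Cdc25c, Dlgap5, Foxm1 and Ccna2 were not matched. The cell cycle homology region was searched as TTTGAA and the NF-Y box as CCAAT, each on both strands. TTTGAA was found in 25 of the 33 (75.8%), against 12.3% of the 9816 promoters of tested genes and 18.1% of all 27025. CCAAT was found in 26 (78.8%), against 39.2% and 37.9%, and at least 2 copies in 20 (60.6%), against 15.5% and 12.2%. Both motifs stood in 22 (66.7%), against 5.22% and 7.12%. For comparison, the E2F core GCGGGAA was found in 0 of the 33, against 8.57% and 4.66%, and GTCTG, the short sequence that SMAD proteins can bind, in 16 (48.5%), against 47.3% and 49.7%. A match is a description of the letters and does not show that a factor was bound.

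Shown here are the 6 matched promoters with the largest summed size of change in TGFb versus Ctrl and SIS3_TGFb versus TGFb among those that hold either motif. Each is printed on the strand of its gene, 5′ to 3′, with TTTGAA and CCAAT matches on either strand in capitals. The promoters lie at chr5:30666636-30666935 (plus strand) for Cenpa, chr1:191821223-191821522 (plus strand) for Nek2, chr2:129297163-129297462 (minus strand) for Ckap2l, chr3:27153829-27154128 (minus strand) for Ect2, chr9:70421505-70421804 (minus strand) for Ccnb2 and chr11:40733388-40733687 (minus strand) for Hmmr.
Cenpa: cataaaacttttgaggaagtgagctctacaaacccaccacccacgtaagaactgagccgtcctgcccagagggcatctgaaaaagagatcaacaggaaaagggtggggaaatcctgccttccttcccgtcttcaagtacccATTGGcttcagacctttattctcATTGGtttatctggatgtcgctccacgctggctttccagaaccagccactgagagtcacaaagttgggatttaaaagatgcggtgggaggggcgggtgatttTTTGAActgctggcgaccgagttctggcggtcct
Nek2: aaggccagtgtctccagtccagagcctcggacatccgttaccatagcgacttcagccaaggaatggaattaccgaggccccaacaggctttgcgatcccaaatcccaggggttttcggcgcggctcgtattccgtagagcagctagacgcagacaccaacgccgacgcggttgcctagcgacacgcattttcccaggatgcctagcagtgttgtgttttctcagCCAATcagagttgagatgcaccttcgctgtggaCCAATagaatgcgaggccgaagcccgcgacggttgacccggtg
Ckap2l: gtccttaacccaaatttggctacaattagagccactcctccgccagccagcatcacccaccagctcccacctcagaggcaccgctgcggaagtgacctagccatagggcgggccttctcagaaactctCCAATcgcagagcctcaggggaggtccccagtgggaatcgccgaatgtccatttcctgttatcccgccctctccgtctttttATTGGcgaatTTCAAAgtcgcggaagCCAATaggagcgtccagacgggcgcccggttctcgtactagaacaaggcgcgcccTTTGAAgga
Ect2: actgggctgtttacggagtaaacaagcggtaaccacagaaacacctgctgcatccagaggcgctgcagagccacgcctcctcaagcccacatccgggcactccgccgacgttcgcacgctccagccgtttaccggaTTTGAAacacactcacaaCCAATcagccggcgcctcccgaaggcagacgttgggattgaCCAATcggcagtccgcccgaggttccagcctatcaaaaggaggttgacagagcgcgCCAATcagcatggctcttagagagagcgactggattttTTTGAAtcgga
Ccnb2: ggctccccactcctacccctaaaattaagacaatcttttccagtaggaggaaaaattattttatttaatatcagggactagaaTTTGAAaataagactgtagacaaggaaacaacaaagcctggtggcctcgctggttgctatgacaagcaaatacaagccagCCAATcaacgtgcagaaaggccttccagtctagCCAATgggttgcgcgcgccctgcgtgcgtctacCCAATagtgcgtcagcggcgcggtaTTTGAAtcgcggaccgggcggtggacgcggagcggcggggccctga
Hmmr: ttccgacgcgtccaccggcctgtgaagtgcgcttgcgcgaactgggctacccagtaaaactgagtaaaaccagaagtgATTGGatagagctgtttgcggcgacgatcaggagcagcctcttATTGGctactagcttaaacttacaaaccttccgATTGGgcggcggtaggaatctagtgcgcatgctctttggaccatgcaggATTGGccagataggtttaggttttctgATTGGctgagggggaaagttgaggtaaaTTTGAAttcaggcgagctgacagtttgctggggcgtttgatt
Distances run from the start point of the window to the first printed base of a match. In Ccnb2, where the start point is the outermost end of the gene, the CCAAT matches begin 87, 54 and 21 bases upstream, and the TTTGAA matches 167 bases upstream and 4 bases downstream. The start point lies 27 bases inside Hmmr, 9 bases inside Cenpa, 24 inside Nek2, 16 inside Ckap2l and 375 inside Ect2. Hmmr holds 5 CCAAT matches, from 172 to 20 bases upstream, and 1 TTTGAA match 8 bases downstream. Cenpa holds CCAAT matches 109 and 86 bases upstream and a TTTGAA match 16 bases downstream, while Nek2 holds 2 CCAAT matches and no TTTGAA. The median log2 change of genes with and without TTTGAA was -0.33 (n = 25) and -0.33 (n = 8) in TGFb versus Ctrl, and 0.37 and 0.27 in SIS3_TGFb versus TGFb. The difference was not tested.

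The kinases, cyclins and regulators of mitotic entry fell together after TGF-β1. All 9 passed the test downward in TGFb versus Ctrl (median log2 -0.52), and all 9 passed it upward in SIS3_TGFb versus TGFb (median 0.38). Of all genes 16.4% fell in TGFb versus Ctrl and 21.2% rose in SIS3_TGFb versus TGFb. The counts of every role below are to be read beside these shares. Cdc25c had 2.84, 3.2 and 3.25 CPM in SIS3_TGFb and 1.29, 2.44 and 1.33 CPM in TGFb, against 2.9, 3.82 and 3.41 CPM in Ctrl. The groups TGFb and Ctrl did not overlap, but this is the lowest gene of the list, with 20 to 62 expected counts per library. Foxm1 stood at 11.8, 13.2 and 14.3 CPM in SIS3_TGFb and 9.36, 10.9 and 9.85 CPM in TGFb, against 14.3, 13.3 and 17.6 CPM in Ctrl. Foxm1 encodes the activator of late cell cycle promoters, and its TGFb libraries lay below all others. Cyclin B1 marks the start of mitosis. Ccnb1 had 16.3, 17.7 and 20.4 CPM in SIS3_TGFb and 14, 15.7 and 12.6 CPM in TGFb, against 19.2, 21 and 21.7 CPM in Ctrl. In SIS3_TGFb versus TGFb it rose by 0.36 ± 0.099 (adjusted p = 0.0086), and its SIS3_TGFb and Ctrl libraries overlapped. The smallest changes of this role in TGFb versus Ctrl were those of Cdk1 and Aurka. Cdk1 had 21.7, 21.5 and 21.5 CPM in SIS3_TGFb and 20.4, 17.8 and 18.4 CPM in TGFb, against 21.7, 24.2 and 24.8 CPM in Ctrl. The Cdk1 rise with SIS3, 0.19 ± 0.073, adjusted p = 0.045, ended in 11 of the 18 alternatives. Aurka encodes the centrosome kinase Aurora A. Aurka had 13.9, 13.2 and 16.1 CPM in SIS3_TGFb and 10.5, 11.1 and 9.32 CPM in TGFb, against 12.6, 13.6 and 12.7 CPM in Ctrl. The SIS3_TGFb libraries of Aurka lay above all TGFb libraries and overlapped Ctrl.

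Ccna2, which encodes cyclin A2 (chr3:36564865-36573038 in GRCm38.p6), fell by 0.51 (SE 0.065) on the log2 scale in TGFb versus Ctrl, to 70.0% of the Ctrl level. It rose by 0.28 ± 0.066 in SIS3_TGFb versus TGFb, and its means were 31.5 ± 2.1 CPM in SIS3_TGFb, 26 ± 1.13 CPM in TGFb and 37.2 ± 1.79 CPM in Ctrl (SD, n = 3 each). No libraries of the 3 groups overlapped for Ccna2, with SIS3_TGFb between TGFb and Ctrl. The others of this role changed by -0.50 (Ccnb2, cyclin B2), -0.54 (Nek2) and -0.36 (the polo-like kinase Plk1) in TGFb versus Ctrl, and by 0.42, 0.57 and 0.30 in SIS3_TGFb versus TGFb.

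Genes of the spindle checkpoint and of the trigger for anaphase, with Cdca3 listed among them, moved less evenly. Of 7 genes 5 fell (71.4%) in TGFb versus Ctrl (median log2 -0.31) and 4 rose (57.1%) in SIS3_TGFb versus TGFb (median 0.30). Cdca3, which had the largest fall of the 7 (-0.44), was listed with this role. It helps to start mitosis by aiding the destruction of the Cdk1 inhibitor Wee1, which is a role in mitotic entry. Cdca3 had 17.2, 16.1 and 19 CPM in SIS3_TGFb and 15.5, 12.5 and 14 CPM in TGFb, against 19.6, 17.6 and 19.8 CPM in Ctrl. The TGFb libraries of Cdca3 lay below all others. Ube2c is the ubiquitin-conjugating enzyme of the anaphase-promoting complex. Ube2c had 28.9, 26.3 and 35 CPM in SIS3_TGFb and 26.6, 23.4 and 19.8 CPM in TGFb, against 28.3, 32.7 and 31.1 CPM in Ctrl. One SIS3_TGFb library of Ube2c lay below the highest TGFb library, although the rise passed the test (0.37 ± 0.11, adjusted p = 0.013). Bub1b had 27.8, 30.4 and 33.8 CPM in SIS3_TGFb and 24.9, 27.5 and 22.1 CPM in TGFb, against 28.1, 30.8 and 33.7 CPM in Ctrl. Bub1b, which encodes the checkpoint kinase BubR1, had TGFb libraries below all others. Pttg1 encodes securin, which holds back the enzyme that separates sister chromatids. Pttg1 had 23.6, 21.6 and 21.3 CPM in SIS3_TGFb and 19.6, 21 and 18.3 CPM in TGFb, against 23.5, 21.4 and 23.1 CPM in Ctrl. Its fall was the smallest that passed (-0.20 ± 0.073, adjusted p = 0.044) and ended in 10 of the 18 alternatives. Ttk, the checkpoint kinase Mps1, was the exception in direction. Ttk had 7.5, 8.43 and 9.35 CPM in SIS3_TGFb and 7.45, 7.2 and 6.52 CPM in TGFb, against 7.25, 5.11 and 8.46 CPM in Ctrl. The Ttk libraries of each treated group overlapped those of Ctrl, and the gene passed the test in none (0.02 ± 0.16 in TGFb versus Ctrl, 0.25 ± 0.16 in SIS3_TGFb versus TGFb). Of the remaining pair, the checkpoint kinase Bub1 passed in both comparisons (-0.31 and 0.28) and Cdc20, which activates the anaphase-promoting complex, in neither (-0.28 ± 0.12, adjusted p = 0.077; 0.30 ± 0.12, adjusted p = 0.051).

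Among 6 centromere and kinetochore genes 3 fell (50.0%) in TGFb versus Ctrl and 4 rose (66.7%) in SIS3_TGFb versus TGFb. Cenpa lies at chr5:30666877-30674837. Cenpa had 42.5, 43.2 and 42.6 CPM in SIS3_TGFb and 33.4, 32.9 and 28.4 CPM in TGFb, against 51.5, 50.3 and 50.8 CPM in Ctrl. No libraries of the 3 groups overlapped for Cenpa. It fell to 62.2% of the Ctrl level with TGF-β1 and stood at 84.1% of it with both agents. Nuf2 and Ndc80 encode partners in one complex. Nuf2 had 9.51, 8.31 and 9.46 CPM in SIS3_TGFb and 8.43, 9.03 and 6.52 CPM in TGFb, against 9.59, 10.4 and 12 CPM in Ctrl. Nuf2 fell with TGF-β1 (-0.41 ± 0.13, adjusted p = 0.021) and did not pass in SIS3_TGFb versus TGFb (0.18 ± 0.13, adjusted p = 0.29). Ndc80 had 11, 11.6 and 13 CPM in SIS3_TGFb and 6.96, 7.81 and 5.79 CPM in TGFb, against 7.63, 6.47 and 7.48 CPM in Ctrl. The SIS3_TGFb libraries of Ndc80 (chr17:71496100-71526857) lay above all others, at 165.0% of the Ctrl level, while its TGFb and Ctrl libraries overlapped. Spc25 encodes a further partner of that complex. Spc25 had 4.55, 5.69 and 7.02 CPM in SIS3_TGFb and 4.74, 4.64 and 3.86 CPM in TGFb, against 4.35, 4.19 and 5.54 CPM in Ctrl. Its groups overlapped in all comparisons and it passed in none, with 58 to 121 expected counts per library. Cenpf had 17.9, 16.7 and 17 CPM in SIS3_TGFb and 15.2, 14.2 and 12.4 CPM in TGFb, against 17.7, 17.1 and 17.5 CPM in Ctrl. Cenpf, a large protein of the outer kinetochore, had TGFb libraries below all others. Cenpe, a kinetochore motor, did not pass in TGFb versus Ctrl (-0.13 ± 0.083, adjusted p = 0.26) and rose in SIS3_TGFb versus TGFb (0.23 ± 0.082, adjusted p = 0.033).

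The 3 genes of the chromosomal passenger complex, which corrects faulty attachments and guides cytokinesis, all fell in TGFb versus Ctrl. In SIS3_TGFb versus TGFb 1 of them rose (33.3%) and 2 did not pass. Aurkb had 9.98, 10.7 and 13 CPM in SIS3_TGFb and 11.9, 12.2 and 11.4 CPM in TGFb, against 12.3, 16.7 and 17.6 CPM in Ctrl. Aurkb, the kinase of the complex (chr11:69045624-69051664), was the only member with a negative value in SIS3_TGFb versus TGFb (-0.07 ± 0.13, adjusted p = 0.69), and its SIS3_TGFb and TGFb libraries overlapped. In SIS3_TGFb versus Ctrl it fell by 0.47 (SE 0.13) although its highest SIS3_TGFb library lay above its lowest Ctrl library. Birc5 had 15.9, 17.3 and 18.9 CPM in SIS3_TGFb and 15.5, 15.3 and 12.4 CPM in TGFb, against 16.7, 17.6 and 21.3 CPM in Ctrl. Birc5 encodes survivin, and its value in SIS3_TGFb versus TGFb did not pass (0.27 ± 0.11, adjusted p = 0.06) although the libraries did not overlap. Cdca8 had 15.7, 16.6 and 21 CPM in SIS3_TGFb and 12.3, 13.7 and 11.7 CPM in TGFb, against 15.1, 15.7 and 16.4 CPM in Ctrl. Cdca8, which encodes borealin, rose in SIS3_TGFb versus TGFb (0.50 ± 0.11, adjusted p = 0.0014). Aurkb and Cdca8 thus had values of opposite sign in that comparison, though that of Aurkb was smaller than its SE. The difference between them was not tested.

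**Figure D3:**
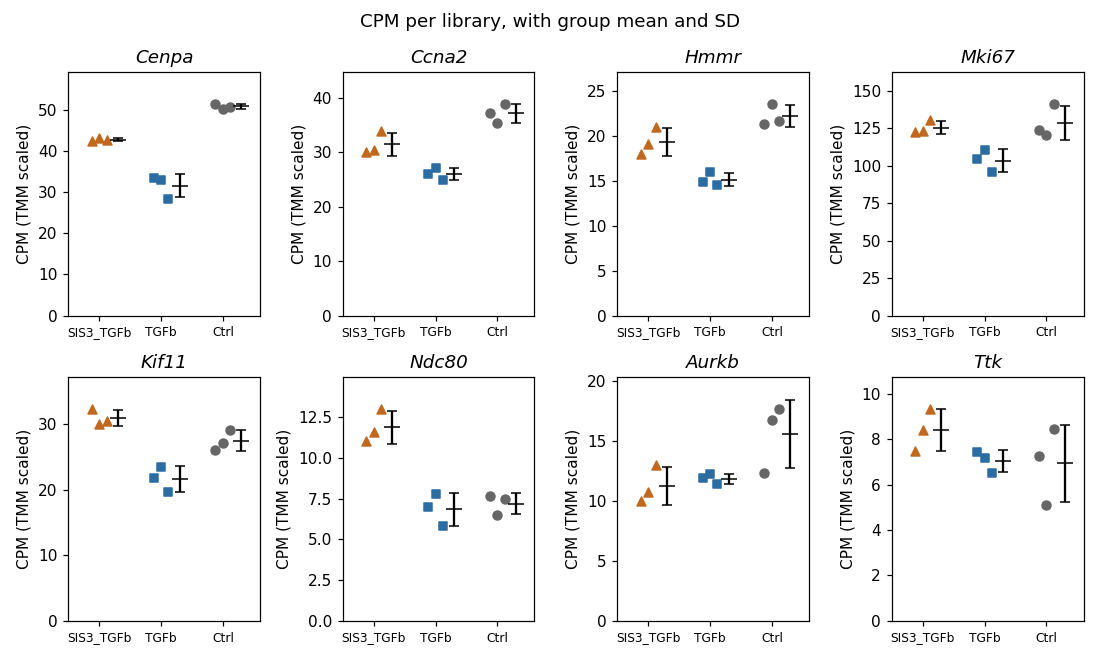
CPM of 8 of the genes in each library (points), with the group mean and SD beside them (n = 3 per group); each axis starts at 0. Cenpa, Ccna2 and Hmmr are ordered TGFb, SIS3_TGFb, Ctrl from low to high, Ndc80 is highest in the SIS3_TGFb libraries, and Aurkb is low in both treated groups. The 8 genes were chosen after their values were seen.

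Spindle motors and microtubule factors gave 7 falls among 8 genes in TGFb versus Ctrl (87.5%, median log2 -0.37) and 7 rises in SIS3_TGFb versus TGFb (87.5%, median 0.40). Hmmr encodes a spindle and centrosome protein. Hmmr had 18, 19.1 and 21 CPM in SIS3_TGFb and 14.8, 16 and 14.6 CPM in TGFb, against 21.4, 23.6 and 21.7 CPM in Ctrl. Its TGFb libraries lay below all others and its SIS3_TGFb libraries below all Ctrl libraries. Ckap2l is a spindle pole protein. Ckap2l had 14.9, 13.4 and 17.1 CPM in SIS3_TGFb and 10.7, 11.8 and 8.45 CPM in TGFb, against 14.1, 12.9 and 17 CPM in Ctrl. The highest TGFb library of Ckap2l lay below all others. Kif4 had 11.6, 11.6 and 15.4 CPM in SIS3_TGFb and 10.6, 8.91 and 8.99 CPM in TGFb, against 13.2, 12.6 and 13 CPM in Ctrl. Kif4, a motor that binds chromosome arms, likewise had TGFb libraries below all others. The smallest changes in TGFb versus Ctrl were those of Nusap1, which bundles spindle microtubules, and of Dlgap5, which stabilizes them. Nusap1 had 23.1, 21.9 and 25.7 CPM in SIS3_TGFb and 18.8, 16.6 and 14.1 CPM in TGFb, against 18.2, 19.4 and 22.4 CPM in Ctrl. Nusap1 did not pass in TGFb versus Ctrl (-0.27 ± 0.11, adjusted p = 0.055) and rose in SIS3_TGFb versus TGFb (0.51 ± 0.10, adjusted p = 0.00095). Dlgap5 had 14.7, 15.4 and 18.5 CPM in SIS3_TGFb and 12.1, 13.2 and 12.2 CPM in TGFb, against 14.1, 16.1 and 16 CPM in Ctrl. The groups TGFb and Ctrl did not overlap for Dlgap5. Kif11, the motor that pushes spindle poles apart (chr19:37376382-37421863), averaged 31 ± 1.22 CPM in SIS3_TGFb, 21.7 ± 1.96 CPM in TGFb and 27.5 ± 1.6 CPM in Ctrl, and no libraries of the 3 groups overlapped. Tpx2, which activates Aurora A, changed by -0.36 and then 0.31 and passed both tests. Kif2c, a microtubule-shortening kinesin, fell (-0.38 ± 0.13, adjusted p = 0.03) and did not pass in SIS3_TGFb versus TGFb (0.27 ± 0.13, adjusted p = 0.098).

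Of 5 genes of the spindle midzone and cytokinesis 4 fell in TGFb versus Ctrl (80.0%, median log2 -0.38) and 4 rose in SIS3_TGFb versus TGFb (80.0%, median 0.38). Ect2 had 12.6, 14.5 and 14.5 CPM in SIS3_TGFb and 11.8, 10.5 and 9.52 CPM in TGFb, against 14.7, 16.5 and 16 CPM in Ctrl. Ect2, which activates RhoA at the division plane, had TGFb libraries below all SIS3_TGFb libraries and those below all Ctrl libraries. Kif20a had 22, 23.4 and 24.3 CPM in SIS3_TGFb and 20.1, 19.8 and 16.8 CPM in TGFb, against 28.9, 25.1 and 29.9 CPM in Ctrl. The same order without overlap held for Kif20a, a midzone kinesin. Anillin, the product of Anln, links the contractile ring to the membrane. Anln had 8.98, 9.41 and 10.0 CPM in SIS3_TGFb and 9.05, 8.42 and 8.25 CPM in TGFb, against 11.9, 10.0 and 11.7 CPM in Ctrl. The TGFb and SIS3_TGFb libraries of Anln overlapped (0.14 ± 0.10, adjusted p = 0.29), and both groups lay below Ctrl. For SIS3_TGFb the gap was slight, 10.044 against 10.045 CPM in the nearest libraries. The gene did not pass in SIS3_TGFb versus Ctrl (-0.24 ± 0.10, adjusted p = 0.057). Kif23 encodes a midzone kinesin as well. Kif23 had 15.4, 14.9 and 16.2 CPM in SIS3_TGFb and 12.4, 13.1 and 10.3 CPM in TGFb, against 13.1, 13.8 and 17.4 CPM in Ctrl. Its fall in TGFb versus Ctrl (-0.31 ± 0.11, adjusted p = 0.048) ended in 11 of the 18 alternatives. Prc1 had 28.1, 31 and 31.5 CPM in SIS3_TGFb and 22.8, 25.4 and 20.4 CPM in TGFb, against 25.3, 24.1 and 27.8 CPM in Ctrl. Prc1, which bundles midzone microtubules, did not pass in TGFb versus Ctrl (-0.17 ± 0.084, adjusted p = 0.14), and its SIS3_TGFb libraries lay above all others.

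The most abundant members by CPM were the proliferation marker Mki67, whose product coats mitotic chromosomes, and Top2a, which untangles DNA. Mki67 had 123, 123 and 130.3 CPM in SIS3_TGFb and 104, 110.4 and 95.6 CPM in TGFb, against 124, 120.3 and 141 CPM in Ctrl. Top2a had 82.3, 79.7 and 88.7 CPM in SIS3_TGFb and 68, 70.1 and 61.1 CPM in TGFb, against 78.5, 80.4 and 90.4 CPM in Ctrl. The TGFb libraries of both lay below all others. Mki67 fell by 0.31 (SE 0.060) with TGF-β1, to 80.6% of the Ctrl level, and Top2a fell by 0.32 (SE 0.063). On a scale per length, CPM per kilobase of exon in GENCODE M21, levels in Ctrl ran from 13.9 for Ccnb2 and 12.8 for Mki67 to 1.11 for Ndc80 and 0.687 for Cdc25c. In SIS3_TGFb the same level of Ndc80 was 1.83 and in TGFb 1.06 CPM per kilobase.

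Replicate 3 held the extreme values in each group. In SIS3_TGFb it was the highest library for 34 of the 40 genes, in TGFb the lowest for 30 and in Ctrl the highest for 27. Its median log2 distance from the group mean was 0.13, -0.14 and 0.09 in these groups. Macrophage and monocyte markers moved with it, at 828, 764 and 1284 CPM in the SIS3_TGFb libraries, 884, 1064 and 680 CPM in the TGFb libraries and 945, 1128 and 1252 CPM in the Ctrl libraries. The sum of the dendritic cell markers followed the same pattern, at 563, 519 and 903 CPM, 607, 730 and 460 CPM, and 572, 739 and 806 CPM. Cd74 made up 57.4% of that sum. In SIS3_TGFb, Cd74, H2-Aa, H2-Ab1 and H2-Eb1 were highest in replicate 3, whereas Zbtb46, Itgax and Batf3 were not. In TGFb replicate 3 the erythroid and megakaryocyte markers stood at 7.72 CPM, against 39.1 and 31.6 CPM in the other TGFb libraries, and Gata2, a mast cell and progenitor factor, had 7 expected counts there, against 123 and 86. The T cell marker sum was also low there, 8.06 CPM against 22.4 and 18.4, and Mpo had 4 expected counts against 66 and 44. The neutrophil marker sum was 247 CPM there, against 247 and 233, and the NK marker sum 15610 CPM, against 14260 and 14220. TGFb replicate 3 thus differed from its group in markers of several cell types. Of the 8 macrophage markers 0 rose and 2 fell in TGFb versus Ctrl (25.0%, against 16.4% of all genes). All 8 had values below 0 there (median log2 -0.255). In SIS3_TGFb versus TGFb 1 rose (12.5%, against 21.2% of all genes) and 5 had values above 0 (median 0.112). The 5 erythroid and megakaryocyte markers tested had medians of -0.619, with 4 below 0, and 0.376, with 5 above 0, in these comparisons. In SIS3_TGFb and Ctrl, replicate 3 held the highest macrophage marker sum and the highest sum of the 40 genes. In TGFb it held the lowest of both (680 and 667 CPM). TGFb replicate 2 had 1064 CPM of macrophage markers, within the Ctrl range, and 767 CPM over the 40 genes, below all Ctrl libraries. SIS3_TGFb replicates 1 and 2 had 828 and 764 CPM of macrophage markers and 882 and 889 CPM over the 40 genes. TGFb replicates 1 and 2 had 884 and 1064 CPM of these markers and 748 and 767 CPM over the 40 genes. The part of these other cells in the spread within groups and in the differences between groups was not tested.

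**Figure D4:**
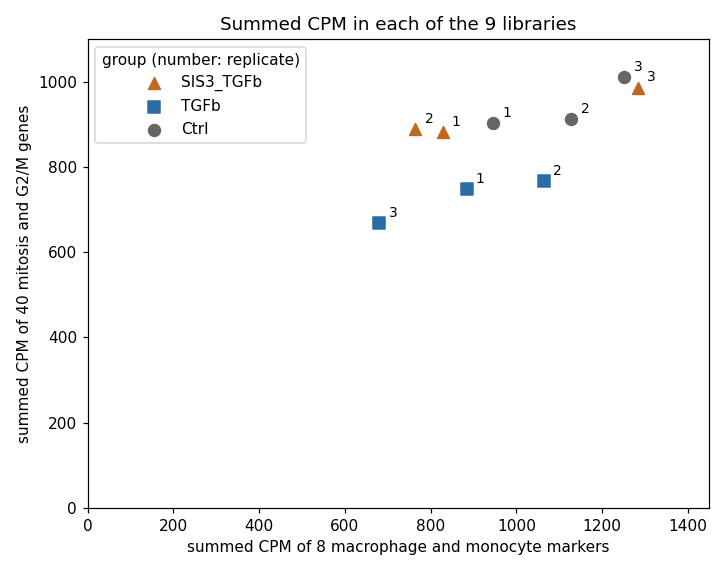
Summed CPM of the 40 genes (y axis) against the summed CPM of 8 macrophage and monocyte markers (x axis) in each library, numbered by replicate; both axes start at 0. The 3 TGFb libraries lie lowest on the y axis, at 667 to 767 CPM, across most of the x range, and replicate 3 of SIS3_TGFb and of Ctrl lie at the upper right.

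Further genes of the mitotic machinery, listed apart from the 40, passed the test in smaller shares. For reading their counts, 16.4% of all genes fell and 17.9% rose in TGFb versus Ctrl, and 20.6% fell and 21.2% rose in SIS3_TGFb versus TGFb. Of 39 other kinetochore and checkpoint genes 8 fell (20.5%), 3 rose (7.69%) and 28 did not pass in TGFb versus Ctrl (median log2 -0.17), so that the share of falls was near that of all genes. In SIS3_TGFb versus TGFb 16 rose (41%), 3 fell (7.69%) and 20 did not pass (median 0.23). Cenpi, a centromere protein, fell (-0.78 ± 0.16) and so did Kntc1 (-0.40 ± 0.084), a checkpoint protein that rose in SIS3_TGFb versus TGFb (0.44 ± 0.083). Ska1, which helps kinetochores to track microtubules, rose by 1.16 ± 0.22 in SIS3_TGFb versus TGFb. Mad1l1, the anchor of the checkpoint protein Mad2, went the other way, up in TGFb versus Ctrl (0.85 ± 0.071, adjusted p = 9.9e-08) and down in SIS3_TGFb versus TGFb (-0.35 ± 0.067). Of 33 other spindle and cytokinesis genes 13 fell (39.4%), 3 rose (9.09%) and 17 did not pass in TGFb versus Ctrl (median -0.24), and 11 rose (33.3%) and 22 did not pass in SIS3_TGFb versus TGFb (median 0.24). The kinesins Kif15 (-0.56 ± 0.096) and Kif18b (-0.60 ± 0.11) and Shcbp1 (-0.78 ± 0.13), a midbody protein, fell, whereas Psrc1 (0.37 ± 0.059) and Knstrn (0.36 ± 0.074), which act on spindle microtubules, rose. In SIS3_TGFb versus TGFb the rises included Spag5 (0.82 ± 0.086), a spindle protein, Cenpj (0.54 ± 0.071), a centriole protein, and Racgap1 (0.42 ± 0.067), the partner of Kif23.

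Condensin, cohesin and anaphase-promoting complex genes had medians near that of all genes. In TGFb versus Ctrl and SIS3_TGFb versus TGFb their shares of calls were near or below those of all genes. In SIS3_TGFb versus Ctrl, 6 of the 17 anaphase-promoting complex genes fell (35.3%, against 24.9% of all genes) and 3 rose (17.6%, against 29%). Of the 19 condensin and cohesin genes 4 fell and 4 rose there (21.1% each). Among 19 condensin and cohesin genes 4 fell (21.1%), 2 rose (10.5%) and 13 did not pass in TGFb versus Ctrl (median log2 -0.03), and 4 rose (21.1%), 2 fell (10.5%) and 13 did not pass in SIS3_TGFb versus TGFb (median 0.03). The condensin genes went both ways in TGFb versus Ctrl, with Smc2 at -0.32 ± 0.074, Ncapg at -0.46 ± 0.11 and Ncaph at 0.37 ± 0.068. Among 17 genes of the anaphase-promoting complex and its regulators 2 fell (11.8%), 1 rose (5.88%) and 14 did not pass in TGFb versus Ctrl (median -0.01), and 4 rose (23.5%), 2 fell (11.8%) and 11 did not pass in SIS3_TGFb versus TGFb (median -0.05). Ube2s, which extends ubiquitin chains with Ube2c, fell with TGF-β1 (-0.32 ± 0.048), and Fbxo5, the inhibitor Emi1 (0.57 ± 0.12), and Anapc16 (0.51 ± 0.053) rose in SIS3_TGFb versus TGFb.

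Regulators of the G2/M promoters and of mitotic entry changed in both directions. Of 15 DREAM, MuvB and NF-Y genes 5 fell (33.3%), 4 rose (26.7%) and 6 did not pass in TGFb versus Ctrl, and 1 rose (6.67%), 1 fell (6.67%) and 13 did not pass in SIS3_TGFb versus TGFb. E2f4, the repressor E2F of the complex, rose with TGF-β1 (0.39 ± 0.039, adjusted p = 7.6e-07) and was lower with SIS3 (-0.35 ± 0.038, adjusted p = 3.7e-06), at 133 ± 1.81 CPM in SIS3_TGFb, 169 ± 2.99 CPM in TGFb and 129 ± 6.13 CPM in Ctrl (SD, n = 3 each). Its binding partners parted, with Tfdp2 up (0.61 ± 0.061) and Tfdp1 down (-0.47 ± 0.051) in TGFb versus Ctrl, and the MuvB subunit Lin37 was up (0.58 ± 0.071). The NF-Y subunit Nfyb rose in SIS3_TGFb versus TGFb (0.55 ± 0.067). Mybl2, which encodes the activator B-Myb, fell in TGFb versus Ctrl (-0.66 ± 0.17, adjusted p = 0.0069) and in SIS3_TGFb versus Ctrl (-0.76 ± 0.17, adjusted p = 0.0015), with a value of -0.10 ± 0.18, adjusted p = 0.71 in SIS3_TGFb versus TGFb. Of 20 brakes on and drivers of mitotic entry 6 fell (30.0%), 5 rose (25.0%) and 9 did not pass in TGFb versus Ctrl, and 8 rose (40%), 2 fell (10.0%) and 10 did not pass in SIS3_TGFb versus TGFb. Wee1, the kinase that inhibits Cdk1, averaged 33.5 ± 1.3 CPM in SIS3_TGFb, 42 ± 0.215 CPM in TGFb and 22.8 ± 1.09 CPM in Ctrl. It rose in TGFb versus Ctrl (0.88 ± 0.057, adjusted p = 4.8e-09) and fell in SIS3_TGFb versus TGFb (-0.33 ± 0.054, adjusted p = 0.00018). Cdc25a, a phosphatase that opposes Wee1, moved the same way (1.00 ± 0.066 and -0.30 ± 0.061), opposite in sign to Cdc25c. Cdkn1a, the cyclin-dependent kinase inhibitor p21, rose in SIS3_TGFb versus TGFb (0.44 ± 0.035), as did the stress gene Gadd45b (1.04 ± 0.13).

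Of 40 genes of DNA replication and the G1/S step, listed for comparison, 22 fell (55.0%, against 16.4% of all genes), 2 rose (5.0%, against 17.9%) and 16 did not pass in TGFb versus Ctrl (median log2 -0.25). In SIS3_TGFb versus TGFb 9 rose (22.5%), 9 fell (22.5%) and 22 did not pass (median 0.03), shares near the 21.2% and 20.6% of all genes. In SIS3_TGFb versus Ctrl 20 fell (50.0%, against 24.9%), 3 rose (7.5%, against 29%) and 17 did not pass (median -0.20). Their summed CPM was 1022, 1018 and 1065 in SIS3_TGFb and 1061, 1105 and 1051 in TGFb, against 1206, 1220 and 1249 in Ctrl. Both treated groups lay below Ctrl and overlapped each other, unlike the sums of the 40 mitotic genes, of which the SIS3_TGFb sums lay above all TGFb sums. Pcna, the sliding clamp of DNA polymerases, fell in SIS3_TGFb versus TGFb (-0.43 ± 0.038, adjusted p = 4e-07), and the helicase subunit Mcm7 rose (0.34 ± 0.055, adjusted p = 0.00013). The difference between the lists was not tested.

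**Figure D5:**
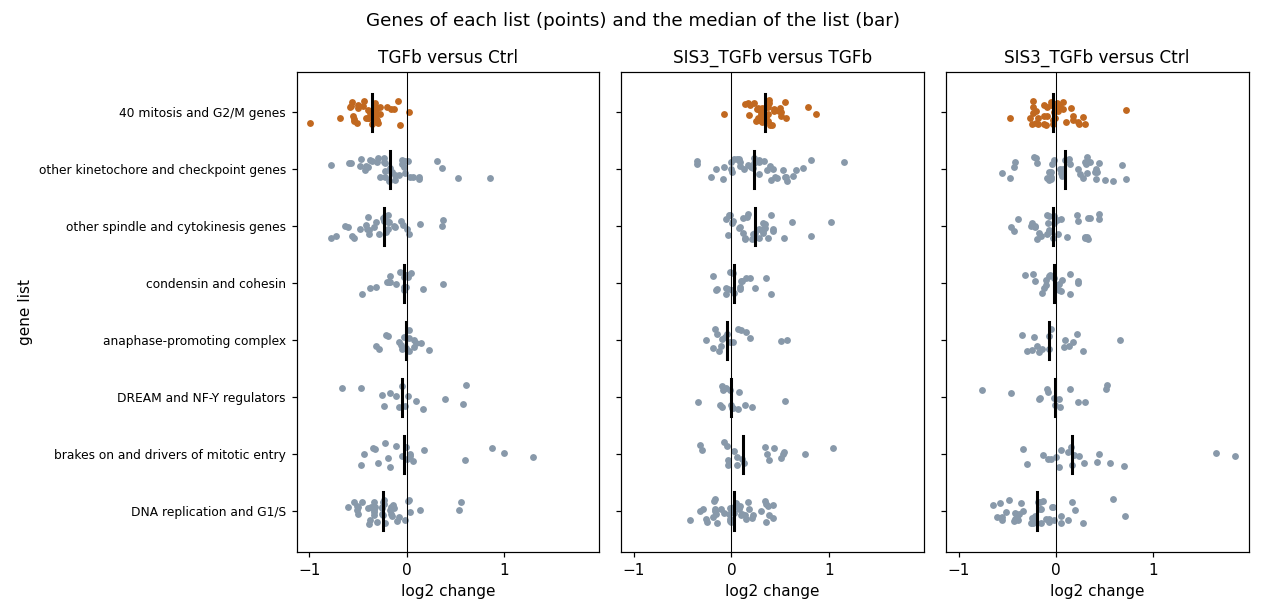
Fitted log2 change of every tested gene of 8 lists (points) and the median of each list (bar) in the 3 comparisons; the 40 mitosis and G2/M genes are orange. Their median is -0.36 in the first panel, 0.34 in the second and -0.03 in the third, while the replication list is at -0.25, 0.03 and -0.20.

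Some counts may hold reads of neighbouring genes, since no source used here says whether counting used strand. In GENCODE M21 the exons of Kif20a share 29.3% of their length with Cdc23 on the other strand, those of Ube2c 22.8% with Tnnc2, those of Kif4 15.1% with Pdzd11, those of Cdc25c 12.7% with Gm3550, those of Ccna2 12.5% with Exosc9 and those of Prc1 11.1% with Rccd1. Cdc23 had log2 values of -0.06 in TGFb versus Ctrl and 0.19 in SIS3_TGFb versus TGFb, Pdzd11 of 0.13 and 0.34, Exosc9 of -0.03 and 0.17, and Rccd1 of -0.01 and 0.27. None of these 4 passed the test in TGFb versus Ctrl. In SIS3_TGFb versus TGFb, Pdzd11 (adjusted p = 0.000596) and Cdc23 (adjusted p = 0.026) rose, as did the overlapping Kif4 and Kif20a, and the part of shared reads was not tested. Pseudogenes named for Ccnb1, Ccnb2 and Kif4 are annotated, so reads of these genes could be split between copies.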

How the data were processed

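Poly-A libraries were sequenced on the DNBseq platform with paired reads of 100 bases, per the labels' protocols. What the authors deposited is a single table of expected counts, estimated reads per gene with no scaling. The unit is inferred from the numbers, since 10.2% to 11.1% of those in a library have decimals. Tools named by the submitters' processing notes are RSEM, Bowtie2, HISAT2, StringTie, Cufflinks and DESeq2, with mm10 and GRCm38 as builds. Sources used here give neither their roles nor versions. Counts were rounded and filtered by filterByExpr (edgeR 4.0.16, R 4.3.3; minimum count 10, minimum total 15), which left 12212 genes. After TMM scaling, glmQLFit and glmQLFTest were run on all 9 libraries with a mean for each group (common biological coefficient of variation 4.53%). The p-values are two-sided, with Benjamini-Hochberg adjustment across all tested genes, and rose or fell means an adjusted p below 0.05. The SE of a log2 change is its size over the root of F. Alternatives were other scaling factors, no filter, DESeq2 1.42.0, voom of limma 3.58.1, only the groups compared, a replicate block, and libraries left out. Members, lists and alternatives were chosen with earlier results of these data known. All 40 members are described, with values per library for the 3 largest and 2 smallest changes of each role in TGFb versus Ctrl (all genes of roles with 3 or fewer). From each further list, genes were named among the 4 with the smallest p of a comparison and the 2 called the other way. Positions come from RefSeq on GRCm38.p6.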

Additional observations from a re-analysis of the deposited data

How the results depend on the processing

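The falls in TGFb versus Ctrl were called for 17 of 33 genes under all 18 alternatives, the rises in SIS3_TGFb versus TGFb for 14 of 31, and the calls in SIS3_TGFb versus Ctrl for 4 of 8. Leaving out 1 library gave 21 to 35 falls in TGFb versus Ctrl and 22 to 32 rises in SIS3_TGFb versus TGFb. Without replicate 3 of each group, an alternative added after the data were seen, the counts were 18 and 15. Over all genes the matching counts were 1858 and 2423, against 2004 and 2585 with all libraries. In SIS3_TGFb versus Ctrl, leaving out 1 library gave 3 to 7 falls and 1 to 5 rises, no scaling factors gave 3 falls, and DESeq2 gave 1 rise. The replicate block changed the counts to 30 falls in TGFb versus Ctrl, 29 rises in SIS3_TGFb versus TGFb, and 5 falls and 2 rises in SIS3_TGFb versus Ctrl. Same-numbered libraries had deviations that correlated at -0.15 to 0.13 in 9 pairs, against -0.16 to 0.14 in 18 pairs of other numbers. The share of rises among all calls was 41.3% with upper-quartile factors and 52.2% with TMM factors in TGFb versus Ctrl. Without scaling factors it was 71.1%, against 50.6%, in SIS3_TGFb versus TGFb and 63.8%, against 53.8%, in SIS3_TGFb versus Ctrl. The causes were not tested. Changes of sign were seen for genes that had not passed. With upper-quartile factors, the log2 changes were -0.0157 for Ttk in TGFb versus Ctrl and -0.0276 for Top2a, -0.018 for Cdc20 and -0.0094 for Nek2 in SIS3_TGFb versus Ctrl. Without replicate 3 of each group, the log2 changes were 0.0074 for Cenpe, 0.0674 for Ndc80 and 0.13 for Spc25 in TGFb versus Ctrl and 0.0095 for Mki67, -0.0931 for Cdc20, -0.0027 for Dlgap5 and 0.0091 for Pttg1 in SIS3_TGFb versus Ctrl. Without scaling factors, the log2 changes were 0.0088 for Aurkb in SIS3_TGFb versus TGFb and 0.0241 for Mki67, 0.0052 for Plk1, 0.0299 for Bub1, 0.0491 for Bub1b, 0.0502 for Kif4, 0.0433 for Cenpf, 0.013 for Tpx2, 0.0305 for Ube2c and 0.0285 for Pttg1 in SIS3_TGFb versus Ctrl. With relative log expression factors, the log2 changes were -0.0104 for Top2a and -0.0014 for Cdc20 in SIS3_TGFb versus Ctrl. With DESeq2, the log2 changes were -0.0103 for Top2a and -0.0017 for Cdc20 in SIS3_TGFb versus Ctrl. With only the 2 groups compared, the log2 changes were -0.0085 for Top2a in SIS3_TGFb versus Ctrl. With libraries left out, the log2 changes in TGFb versus Ctrl ran from -0.15 to 0.19 for Ttk, -0.16 to 0.0498 for Spc25 and -0.17 to 0.0374 for Ndc80. With libraries left out, the log2 changes in SIS3_TGFb versus TGFb ran from -0.20 to 0.0004 for Aurkb. With libraries left out, the log2 changes in SIS3_TGFb versus Ctrl ran from -0.0394 to 0.073 for Top2a, -0.0086 to 0.20 for Kif23, -0.16 to 0.0565 for Kif4, -0.12 to 0.12 for Cdc20, -0.11 to 0.0256 for Bub1, -0.16 to 0.0541 for Ube2c, -0.0286 to 0.0918 for Nek2, -0.0568 to 0.17 for Ckap2l, -0.0812 to 0.0388 for Mki67, -0.20 to 0.048 for Ccnb2, -0.0895 to 0.0564 for Bub1b, -0.13 to 0.0437 for Tpx2, -0.16 to 0.0184 for Birc5, -0.0485 to 0.0001 for Cenpf and -0.0339 to 0.14 for Dlgap5. Depth limits the lowest genes, Cdc25c with 20 to 62 and Spc25 with 58 to 121 expected counts per library.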
